A study of Mus musculus with 12 samples.

Results

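The miR-181 family of mouse was followed in small RNA from isolated heart mitochondria. Its members were taken by name: the rows of mmu-miR-181a-5p, mmu-miR-181b-5p, mmu-miR-181c-5p and mmu-miR-181d-5p (mmu, the prefix for mouse, is left off from here), and every 3p row of the same hairpins. These were 10 of the 932 rows of the deposited table, 4 of them 5p and 6 of them 3p. There were 6 libraries of wild-type (WT) and 6 of db/db heart mitochondria, db/db being a line that lacks a working leptin receptor and becomes obese and diabetic. The labels give the genotype, the heart and the mitochondrial fraction, with no strain background, age, sex or treatment. They number the samples 1 to 6 in each genotype, and whether a number stands for an animal of its own is not stated. The p-values here therefore reflect sample-to-sample spread only, part of which may be technical.

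A miRNA hairpin is cut into a 5p and a 3p strand, and the strand kept by an Argonaute protein pairs with target RNAs mainly through its seed, bases 2 to 8. The miR-181 family is best known from lymphocytes, endothelium and brain. In the heart, miR-181c is the member described inside mitochondria, where it has been reported to act on the mRNA of mt-Co1, a subunit of cytochrome c oxidase encoded by mitochondrial DNA.

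The mature strands are shown because their likeness bears on how reads could be told apart. They are from RefSeq (GRCm38.p6), matched by name for 10 of the 10 rows, 5′ to 3′, with the seed in capitals.
miR-181a-5p: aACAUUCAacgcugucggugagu
miR-181b-5p: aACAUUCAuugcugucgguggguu
miR-181c-5p: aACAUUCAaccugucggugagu
miR-181d-5p: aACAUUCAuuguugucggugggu
miR-181a-1-3p: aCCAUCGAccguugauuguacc
miR-181a-2-3p: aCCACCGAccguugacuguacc
miR-181c-3p: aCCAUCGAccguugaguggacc

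All 4 of the 5p strands carried the same seed, which was found in no other row among the 635 named rows with a RefSeq sequence. They fell into 2 pairs by the rest of the strand. From miR-181a-5p to miR-181c-5p there was no substitution and base 11 of miR-181a-5p was absent. From miR-181b-5p to miR-181d-5p there was 1 substitution, C12U, and 1 base fewer at the 3′ end (positions are counted from 1 at the 5′ end of the first strand named). From miR-181a-5p to miR-181b-5p there were 3 substitutions, A9U, C10U and A21G, and 1 base more at the 3′ end. The 3p strands were less alike: miR-181a-1-3p and miR-181c-3p shared a seed and differed by U16G and U19G, while miR-181a-2-3p differed from miR-181a-1-3p by U5C, within the seed, and U16C.

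The 6 hairpins lie in 3 pairs. In a GRCm38 annotation, whose build differs from that of the table, Mir181a-1 and Mir181b-1 lie on chromosome 1 and overlap exons of the noncoding RNA A430106G13Rik. Both also lie in an intron of Gm4258, on the same strand, and in an intron of Gm26936, on the opposite strand. Mir181a-2 and Mir181b-2 lie on chromosome 2 in an intron of Nr6a1, a nuclear receptor gene, on the opposite strand. Mir181c and Mir181d lie on chromosome 8 in an intron of Nanos3, on the same strand as that gene. By position on the chromosome, whatever the strand, the next genes past Mir181c are Mir23a, Mir27a and Mir24-2. Whether those genes share a strand or a transcript with Mir181c was not examined. The 5p strands of miR-181a and miR-181b are therefore each made from 2 loci whose reads cannot be separated, whereas the 3p rows and both strands of miR-181c and miR-181d belong to 1 locus each.

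The 7 bases that would pair with the shared 5p seed, TGAATGT, were searched in the 13 mitochondrial protein-coding transcripts of GENCODE M21. They were found in 0 of 13 on the sense strand, mt-Co1 included, and their reverse complement ACATTCA was also found in 0. For comparison, TGAATGT was present in 12.2% of 32764 nuclear protein-coding transcripts when each was read over its first 1545 bases, the length of mt-Co1. The share was 1.03% at the length of the shortest, mt-Atp8, and 14.6% at that of the longest, mt-Nd5. This is a description of letters in these transcripts and does not address pairing outside the seed.

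The unit was RPM, each library's reads scaled to the same sum, deposited under the name TPM, and the reads behind them were recovered as whole numbers. Totals ran from 412749 to 1382046 reads per library, so that 1 read was worth 0.724 to 2.42 RPM and a value of 0 allowed up to 3 reads, or 2.17 to 7.27 RPM. Such limits cover counting error only, since copies made by PCR are not independent molecules. RPM has no length term, and the strands shown are 22 to 24 bases long. WT library 4 and db/db library 6 had the fewest reads, and results without them are given below. The libraries had the marks of muscle: 4 muscle miRNAs (miR-1a-3p, miR-133a-3p, miR-208a-3p and miR-499-5p) summed to 337987 to 439537 RPM per library, most of it miR-133a-3p. The scarcest of them, miR-208a-3p, averaged 68.6 RPM for WT and 29.6 RPM for db/db, with a lowest value of 1.38 RPM. By comparison, miR-122-5p of hepatocytes had a mean of 4.92 RPM. No other cell fraction was among the libraries, so enrichment of any strand in mitochondria was not tested.

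miR-181a-5p carried most of the family. Over 12 libraries it averaged 3555 RPM, rank 42 of 932 rows, and made up 79.2% of the reads of the 4 5p strands. miR-181b-5p, at 638 RPM, held 14.3%, miR-181c-5p, at 182 RPM, held 4.05% and miR-181d-5p, at 109 RPM, held 2.43%. miR-181a-5p lay above miR-181b-5p, and miR-181b-5p above miR-181c-5p, in 12 of 12 libraries without overlap of their ranges, at 5.57 and 3.51 times the mean level. miR-181a-5p, which has the seed of miR-181c-5p and differs from it by 1 base, averaged 19.6 times its level.

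Below miR-181b-5p the order was less firm. miR-181c-5p lay above miR-181a-2-3p in 7 of 12 libraries and above miR-181d-5p in 10 of 12, with 4 of 6 in WT and 6 of 6 in db/db libraries. miR-181a-2-3p, at 136 RPM, lay above miR-181d-5p in 7 of 12 libraries, 2 of 6 in WT and 5 of 6 in db/db. The ranges of these 3 neighbours overlapped. The log2 ratio of miR-181d-5p to miR-181c-5p within a library was -0.79 ± 0.71 (SD, n = 12), and no test of the order was run. miR-181a-1-3p, at 37.2 RPM, lay below miR-181d-5p in 12 of 12 libraries, and miR-181c-3p, at 24.1 RPM, lay below miR-181a-1-3p in 10 of 12. The remaining 3p rows were near or below the limit of a count of 0. miR-181b-1-3p had 3 reads in WT library 5 and 6 reads in db/db library 3 and none elsewhere, miR-181b-2-3p was above 0 in 4 libraries, and miR-181d-3p in 3.

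**Figure D1:**
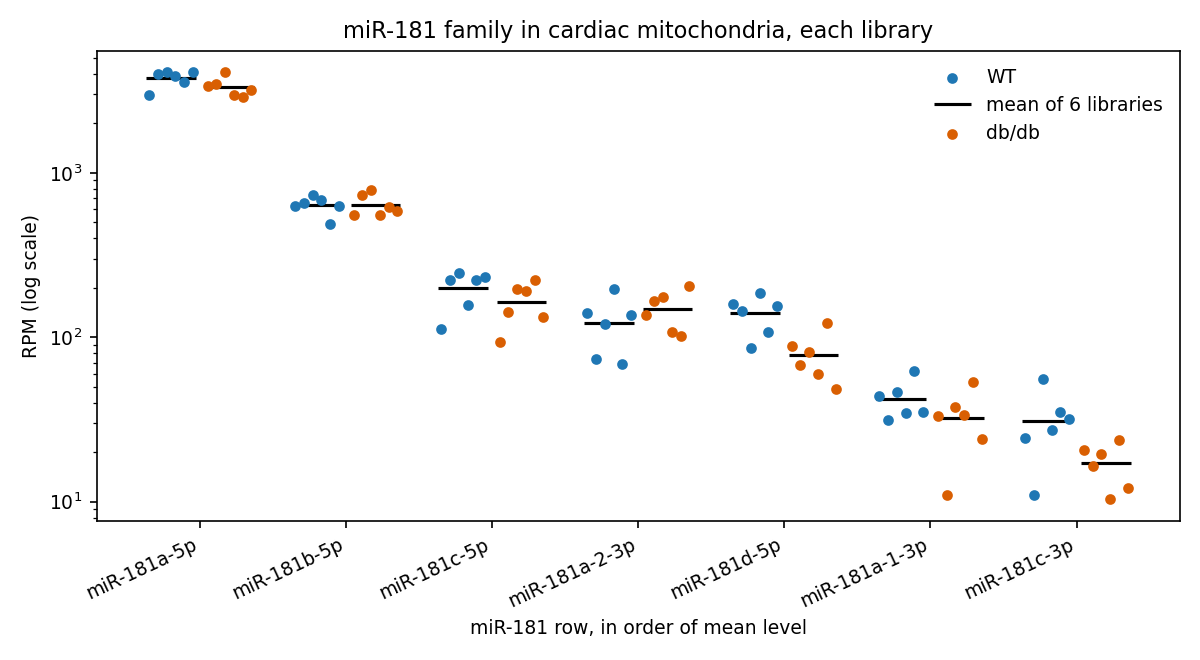
RPM on a log scale of the 7 miR-181 rows above 0 in all 12 libraries, in order of mean level; each point is a library (numbers 1 to 6 from left to right within a genotype) and each bar the mean of 6. miR-181a-5p and miR-181b-5p stand above the rest without overlap, while miR-181c-5p, miR-181a-2-3p and miR-181d-5p overlap.

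The strands were used unequally from hairpin to hairpin. Of all miR-181c reads, 3p reads made up 13.6% ± 5.01 for WT and 10.1% ± 4.32 for db/db (n = 6 each, ± SD), the highest mean among the 4 family members. For miR-181a, with both of its 3p rows, the 3p share was 4.23% ± 1.24 for WT and 5.16% ± 0.774 for db/db. For miR-181b and miR-181d it averaged 0.342% and 1.10% over 12 libraries, on 0 to 7 reads of each 3p row. Between the loci of miR-181a, the chromosome 2 strand miR-181a-2-3p made up 72.5% ± 11.2 of the 3p reads for WT and 81.3% ± 10.0 for db/db (n = 6 each, ± SD), more than the chromosome 1 strand miR-181a-1-3p in 12 of 12 libraries. The ranges of the genotypes overlapped for each of these shares, and they were not tested.

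The genotypes were then compared. No miR-181 strand passed the threshold for a difference between db/db and WT. limma was fitted to log2(RPM + 1) over the 646 rows that averaged 1 RPM or more, of which 9 were miR-181 rows; miR-181b-1-3p was below that mean. With Benjamini-Hochberg adjustment over all 646 rows and a threshold of 0.05, 0 of 9 were called. The background was 0.155%, 1 row (miR-22-3p, lower in db/db). At an unadjusted p under 0.05 there was 1 of 9, miR-181d-5p, against 8.98% of all rows. edgeR on the recovered reads called 0 of 9, with 0.464% of rows called, and DESeq2 called 0 of the 5 members to which it gave an adjusted p, against 8.97% of all rows given one. The groups of 6 did not overlap in 0 of 9 members, against 0.929% of rows. The fold changes of 7 of the 9 rows were negative, with a median of -0.48, while 52.3% of all rows were negative with a median of -0.04. Of the 9, 5 are 3p rows with fewer reads, and over the 5p rows alone the median was -0.24, with 3 of 4 negative.

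miR-181d-5p, the scarcest of the 5p strands, had the widest gap between genotypes among them. In WT libraries its lowest value was 86.1 RPM, the median 150 and the highest 187. In db/db libraries they were 48.5, 74.6 and 122 RPM. Each of the 6 db/db values was under the WT median, as was so for 8.05% of rows tested, but the groups overlapped: WT library 3 was the lowest of WT, below db/db libraries 1 and 5, and WT library 5 lay below db/db library 5. The means were 140 ± 36.8 RPM for WT and 77.9 ± 26.1 RPM for db/db (n = 6 each, ± SD), a ratio of 0.555. On the log2 scale the difference was -0.86 ± 0.30 (SE; 95% interval -1.46 to -0.25; limma unadjusted p = 0.00638, adjusted p = 0.275). The adjusted p missed the threshold. At an unadjusted p under 0.05, 4.64% of all rows were lower in db/db libraries.

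The counts behind miR-181d-5p were modest, from 20 reads (db/db library 6) up to 169 reads (db/db library 5). For 20 reads the exact 95% Poisson interval ran from 29.6 to 74.8 RPM. The spread between libraries, 26.3% of the mean in WT and 33.5% in db/db, exceeded the 10.1% and 12.9% that counting alone would give. edgeR and DESeq2 gave -0.77 and -0.76 on the log2 scale (adjusted p = 0.135 and 0.0945). With WT library 4 and db/db library 6 left out the difference was -0.64 ± 0.32 (SE; limma adjusted p = 0.644). Within libraries numbered 1 to 3 it was -0.67 ± 0.39 and within 4 to 6 it was -1.04 ± 0.46 (SE; limma adjusted p = 0.775 and 0.706). The labels name no batch behind that split of the numbers, but it was not without differences. With the split as a factor, limma called 17 rows between libraries 4 to 6 and libraries 1 to 3. The same fit called 10 rows for genotype, and the fit without that factor called 1. For miR-181d-5p the log2 difference of libraries 4 to 6 from 1 to 3 was 0.03 ± 0.30 (SE; limma adjusted p = 0.981). What lies behind the split was not tested, and no other split of the libraries was run beside it. The 17 rows therefore do not show that this split is a real grouping.

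miR-181b-5p, which differs from miR-181d-5p by C12U and the final base, showed no such gap. The lowest, median and highest values were 486, 646 and 733 RPM for WT and 552, 604 and 787 RPM for db/db. The values of the genotypes lay over one another. The means were 637 ± 83.8 RPM for WT and 638 ± 98.5 RPM for db/db (n = 6 each, ± SD), and the 95% interval of the log2 difference, -0.36 to 0.36, bounds what could have gone unseen (limma adjusted p = 0.998). The ratio of miR-181d-5p to miR-181b-5p in the same library, free of that scaling, was 0.222 ± 0.0550 for WT and 0.124 ± 0.0446 for db/db (n = 6 each, ± SD). It was above the highest db/db value, 0.197, in 5 of 6 WT libraries, the exception being WT library 3 at 0.118. This ratio was chosen after its values were seen and carries no test. Reads that fit both strands were not examined here, since the table holds 1 value per row.

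**Figure D2:**
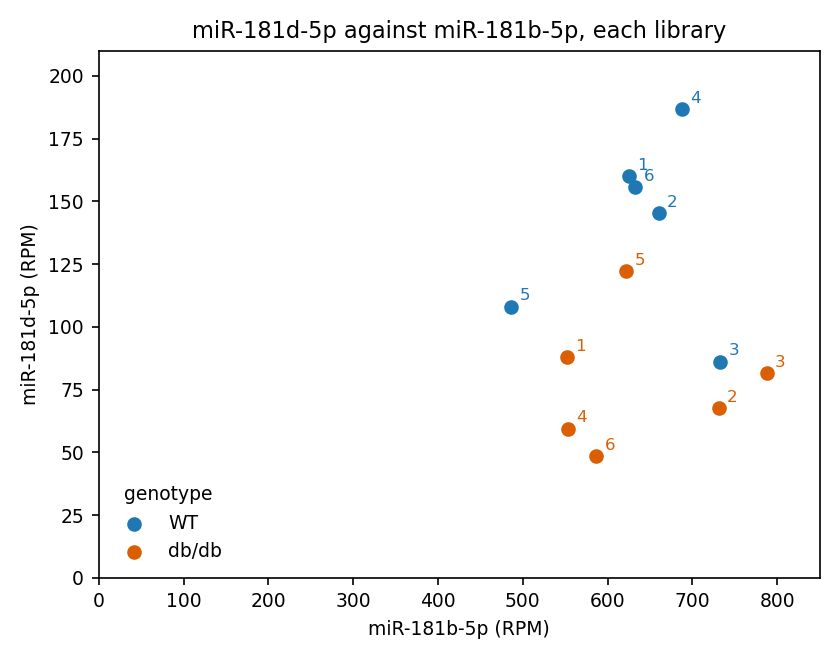
miR-181d-5p against miR-181b-5p, both in RPM on linear axes from 0, with a point for each library labelled by its number and coloured by genotype. The genotypes overlap along miR-181b-5p (486 to 733 RPM for WT and 552 to 787 RPM for db/db), while 4 of 6 WT libraries lie above the highest db/db library, number 5 at 122 RPM, along miR-181d-5p.

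miR-181c-5p, the strand tied to mitochondria, did not differ beyond its spread. Its lowest, median and highest values were 113, 223 and 246 RPM for WT and 93.5, 167 and 224 RPM for db/db. Library 1 was the lowest of both genotypes, and the ranges overlapped. The means were 199 ± 52.4 RPM for WT and 164 ± 49.0 RPM for db/db (n = 6 each, ± SD), and the log2 difference was -0.29 ± 0.26 (SE; limma adjusted p = 0.717). Its 95% interval ran from -0.81 to 0.23, so a difference nearly as large as that of miR-181d-5p is within it. With the 2 shallowest libraries left out the log2 difference was -0.30 ± 0.27 (SE; limma adjusted p = 0.703). It rested more on library 1 of each genotype, at -0.44 without WT library 1 and -0.14 without db/db library 1 (limma adjusted p = 0.698 and 0.839). Relative to miR-181a-5p in the same library, miR-181c-5p stood at a ratio of 0.0522 ± 0.0105 for WT and 0.0503 ± 0.0182 for db/db (n = 6 each, ± SD).

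The other strand of the same hairpin, miR-181c-3p, ran from 11.1 to 56.2 RPM for WT, with a median of 29.5, and from 10.3 to 23.9 RPM for db/db, with a median of 18.0. Each db/db value was under the WT median, as was so for 8.05% of rows tested. In RPM 5 of 6 WT libraries lay above the highest db/db value, with WT library 2 the exception. After median-of-ratios scaling 4 of 6 did. It rested on 5 to 45 reads per library, and its log2 difference of -0.73 ± 0.55 (SE; limma adjusted p = 0.717) had a 95% interval from -1.82 to 0.37. miR-181d-3p had 12 reads over all WT and 6 over all db/db libraries and gives no usable fold.

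The most abundant strand, miR-181a-5p, ran from 2982 to 4098 RPM for WT, with a median of 3965, and from 2881 to 4104 RPM for db/db, with a median of 3296. The ranges overlapped, with WT library 1 the lowest of WT and db/db library 3 above every WT library. The means were 3779 ± 438 RPM for WT and 3331 ± 441 RPM for db/db (n = 6 each, ± SD), with a log2 difference of -0.18 ± 0.14 (SE; 95% interval -0.46 to 0.09; limma adjusted p = 0.717). At 1325 reads or more per library, counting error was 1.92% of the mean for WT and 2.07% for db/db, against a spread between libraries of 11.6% and 13.2%. By sample number the log2 difference was -0.01 ± 0.15 within libraries 1 to 3 and -0.35 ± 0.21 within 4 to 6 (SE; limma adjusted p = 0.984 and 0.770). In libraries 4 to 6 the 3 WT values (3568 to 4098 RPM) lay above the 3 db/db values (2881 to 3210 RPM), as in 5.26% of rows tested, and so did those of miR-181c-3p. miR-181b-2-3p completes the count of 3 of 9 members, but with 1, 2 and 6 reads against 0 it is within what a count of 0 allows. The test of the difference between the 2 sets of numbers gave an interaction of -0.34 ± 0.26 on the log2 scale (SE; limma adjusted p = 0.862), so it was not shown.

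Of the 3p strands of miR-181a, the chromosome 1 strand and the chromosome 2 strand had values of opposite sign, and neither passed. miR-181a-1-3p had means of 42.3 ± 11.4 RPM for WT and 32.2 ± 14.1 RPM for db/db, and miR-181a-2-3p of 122 ± 47.2 RPM and 149 ± 41.0 RPM (n = 6 each, ± SD). Their log2 differences were -0.48 ± 0.45 and 0.32 ± 0.29 (SE; limma adjusted p = 0.717 for each). The first was -0.22 without db/db library 2, and the second was 0.18 without WT library 5 and 0.20 without WT library 2. db/db library 2 held the lowest miR-181a-1-3p, 11.1 RPM on 8 reads. The 4 5p strands summed to 4756 ± 514 RPM for WT and 4211 ± 519 RPM for db/db (n = 6 each, ± SD), with ranges of 3881 to 5160 and 3763 to 5171 RPM that overlapped; this sum was not tested.

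**Figure D3:**
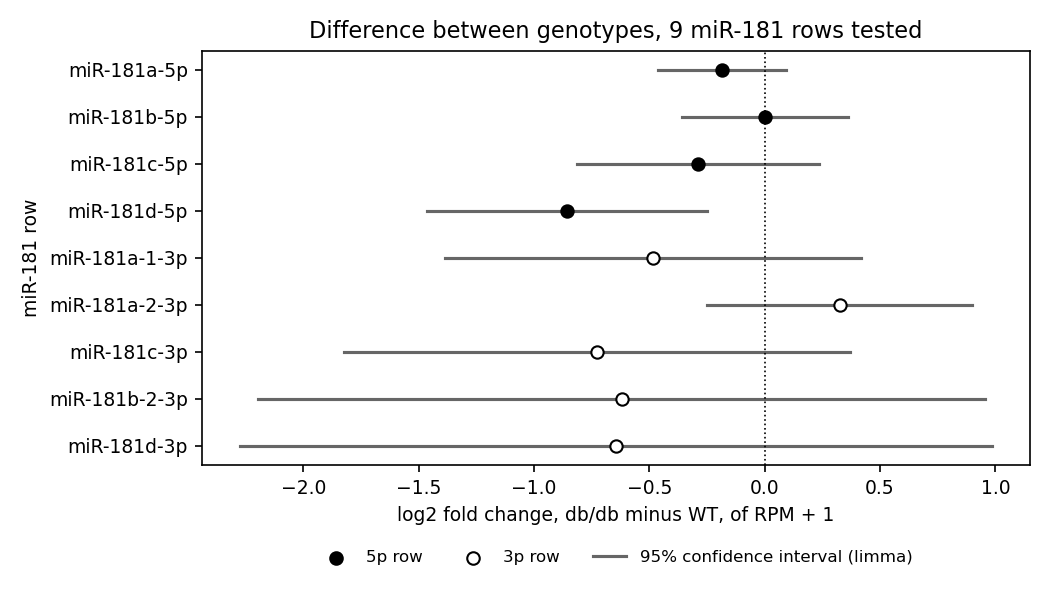
log2 fold change (db/db minus WT, of RPM + 1) of the 9 miR-181 rows tested, with the 95% confidence interval from limma; filled points are 5p rows and open points 3p rows. The interval of miR-181d-5p, -1.46 to -0.25, is the one that leaves out 0 before adjustment, and the scarce 3p rows have the widest intervals.

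From library to library the 4 5p strands moved together only loosely. Of 6 pairs, on log2(RPM + 1) over 12 libraries, miR-181a-5p and miR-181b-5p had the highest Pearson r, 0.50 (permutation p = 0.0961, adjusted over the 6 pairs 0.530), with a Spearman rho of 0.63 (permutation p = 0.0331, adjusted 0.198). It was 0.48 without the 2 libraries farthest from the median of miR-181a-5p, and 0.40 within WT and 0.74 within db/db libraries. miR-181a-5p and miR-181c-5p, 1 base apart, had an r of 0.42 (permutation p = 0.177, adjusted 0.530) and a rho of 0.45 (permutation p = 0.147, adjusted 0.442). That r was 0.80 without the 2 farthest libraries, and it was 0.82 within WT and -0.16 within db/db libraries. The pair of neighbours on chromosome 8, miR-181c-5p and miR-181d-5p, had an r of 0.17 (permutation p = 0.602, adjusted 0.727), with -0.59 within WT and 0.28 within db/db libraries. No pair passed after adjustment. Values scaled to a common total are tied to each other, which itself moves such correlations.

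The miRNAs most like the members were found among 141 other named rows averaging 100 RPM or more, by Pearson r over the 12 libraries, given as a description. For miR-181a-5p they were miR-322-3p (0.67), miR-140-3p (0.61), miR-27b-3p (0.59), miR-455-3p (0.54) and miR-365-3p (0.53). For miR-181c-5p they were miR-106b-5p (0.80), miR-21a-5p (0.77), miR-148a-3p (0.75), miR-30e-5p (0.75) and miR-335-5p (0.73). No miRNA stood in both lists.

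The miR-23a cluster, which lies next to Mir181c by position on chromosome 8, whatever the strand, was compared as the nearest neighbour. Of its 6 mature strands 5 had negative values and 0 passed the test, with a median log2 difference of -0.27 against -0.04 over all rows; miR-24-3p can also come from another hairpin, Mir24-1. miR-24-3p had means of 26552 ± 1759 RPM for WT and 20794 ± 2201 RPM for db/db (n = 6 each, ± SD) with no overlap of the genotypes, as in 0.929% of rows, and a log2 difference of -0.36 ± 0.12 (SE; limma adjusted p = 0.198). miR-23a-3p stood at -0.23 ± 0.12, miR-27a-3p at -0.19 ± 0.16 and miR-24-2-5p at -0.34 ± 0.16 (log2 difference, SE; limma adjusted p = 0.575, 0.717 and 0.543). miR-24-2-5p, which comes from the hairpin on chromosome 8, did not overlap either, at 876 to 1120 RPM for WT and 739 to 842 RPM for db/db. The positive strand was the scarce miR-23a-5p, with means of 4.03 RPM for WT and 17.5 RPM for db/db and a log2 difference of 2.13 ± 0.91 (SE; limma unadjusted p = 0.0223, adjusted p = 0.504). miR-24-3p was called by DESeq2 and by limma with the 2 sets of sample numbers as a factor. Beside them stood -0.29 for miR-181c-5p and -0.86 for miR-181d-5p, and whether these differ from one another was not tested.

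miR-181c-5p was also set beside other miRNAs described in mitochondria. Of the 16 listed, miR-181c-5p itself among them, 15 were tested and 1, miR-696, was at 0 in every library. Of the 15, 8 had negative and 7 positive values, 0 passed, and the median was -0.10. At an unadjusted p under 0.05 there were 4 of 15, against 8.98% of rows, and none was a miR-181 strand. With the 2 sets of sample numbers as a factor limma called miR-92a-3p and miR-21a-5p, and DESeq2 called miR-92a-3p. The 4 most abundant were miR-133a-3p at 0.07 ± 0.11, miR-1a-3p at -0.25 ± 0.14, miR-378a-3p at -0.10 ± 0.12 and miR-92a-3p at 0.51 ± 0.15 (log2 difference, SE; limma adjusted p = 0.789, 0.716, 0.733 and 0.109). The scarcest of these 4, miR-92a-3p, averaged 4822 RPM, against 182 RPM for miR-181c-5p.

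Summed markers of other cells are given beside these values, untested. The 5 fibroblast and smooth muscle miRNAs summed to 33897 to 47321 RPM for WT and 24559 to 39198 RPM for db/db, none of them at 0, and 3 of 5 had negative fold changes. The 3 endothelial miRNAs summed to 20027 to 30425 RPM for WT and 16719 to 26239 RPM for db/db, and 2 of 3 were negative. The 6 leukocyte miRNAs, which include the lymphocyte miRNA miR-150-5p, summed to 3550 to 5438 RPM for WT and 3140 to 6905 RPM for db/db, with 3 of 6 negative. The 4 neural miRNAs summed to 618 to 746 RPM for WT and 739 to 956 RPM for db/db, most of it miR-128-3p. Of these 4, 2 were negative, miR-219a-5p (-0.68) and miR-124-3p (-0.01), and 2 positive, miR-9-5p (0.41) and miR-128-3p (0.34). miR-219a-5p was at 0 in 11 of 12 libraries. The 4 erythroid miRNAs summed to 9935 to 21146 RPM for WT and 18284 to 30731 RPM for db/db, with 1 of 4 negative. Most of that sum was miR-486a-5p, with means of 15389 RPM for WT and 21760 RPM for db/db. Whether miR-486a-5p came from red cells was not tested, so the sum is not a measure of them. In the erythroid list miR-451a stood at 0.26 and miR-144-5p at -0.53 (log2 difference, limma adjusted p = 0.717 and 0.733). The fibroblast and smooth muscle sum, most of it miR-143-3p, and the endothelial sum reached lower for db/db. Within the former, miR-199a-3p (0.06) and miR-214-3p (0.45) were positive on the log2 scale. The erythroid and neural sums reached higher for db/db, and all 4 of these sums overlapped between genotypes. No single marker passed the limma test, but miR-223-3p of leukocytes and miR-128-3p did not overlap between genotypes, as in 0.929% of rows. DESeq2 called both of them and miR-486a-5p of the erythroid list, which edgeR called too. With the 2 sets of sample numbers as a factor limma called miR-143-3p of smooth muscle, miR-223-3p and miR-486a-5p. Their part in the miR-181 values was not tested, and fewer cells of a type cannot be told apart from less of a strand per cell.

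**Figure D4:**
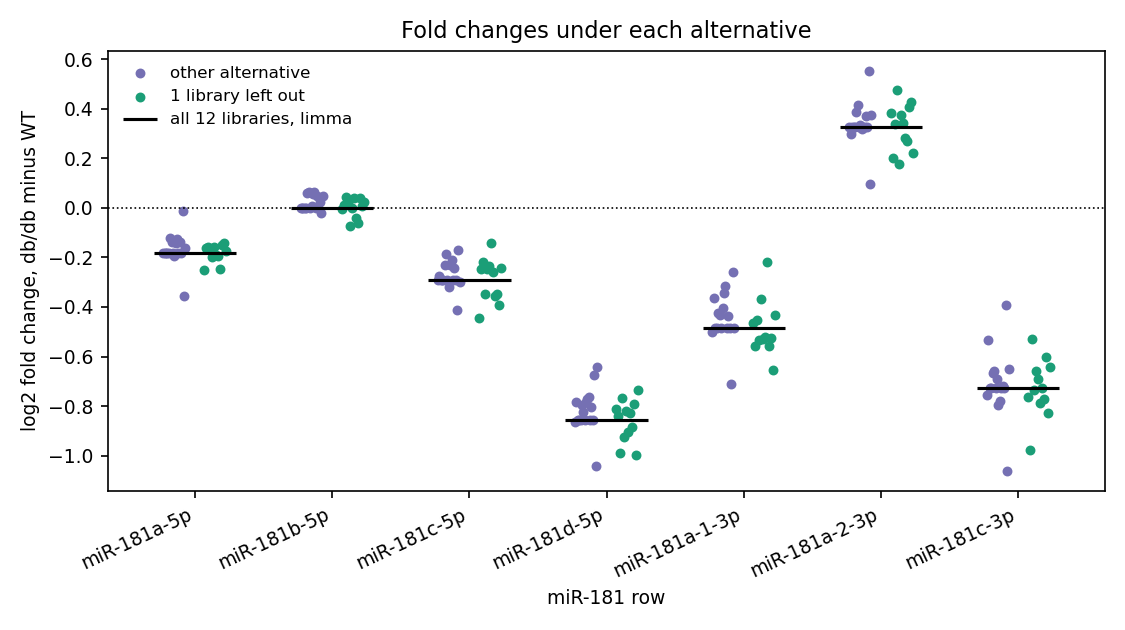
log2 fold changes (db/db minus WT) of the 7 most abundant miR-181 rows under each alternative analysis; the bar is the fit with all 12 libraries, violet points are other settings and green points leave out 1 library. miR-181d-5p stays between -1.04 and -0.64, and miR-181b-5p lies on both sides of 0.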

How the data were processed

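Small RNA-seq values of heart mitochondria, 6 WT and 6 db/db libraries, came from a single table. The authors deposited the values as TPM; each column has the same sum and 100% of values were whole reads within 0.01 of a read after recovering 1 total per library, so the unit was taken as RPM, deposited with no length term. Per the submitters' processing notes, reads were handled with build GRCm39. Which aligner and miRNA annotation were used is not given in the sources used here. Over 66 pairs of libraries, chi-square per degree of freedom was 18.6 or more, beyond what redrawing reads of 1 library would give. Libraries prepared separately from 1 sample are not excluded by this.

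limma 3.58.1 (R 4.3.3) with an abundance trend was fitted to log2(RPM + 1) of rows averaging 1 RPM or more over the libraries fitted, two-sided, without a replicate block. edgeR 4.0.16 and DESeq2 1.42.0 were run on recovered reads. Correlations used 100000 permutations. The fit was tested on simulated data. Sequences were read from RefSeq (GRCm38.p6) by name, genes from GENCODE M21. Plots used Python 3.11.15 and matplotlib 3.10.9.

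Named miRNAs were, by rule, the members, the row called, the 4 most abundant of the mitochondrial and miR-23a lists, and the 5 rows most like miR-181a-5p and miR-181c-5p. Cell markers, miR-696, miR-21a-5p and miR-23a-5p are named beyond that rule, chosen after their values were seen. The members, lists and alternatives were chosen with earlier results of these data known.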

Additional observations from a re-analysis of the deposited data

Results flagged for a closer look

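In 40 groups of 6 values from the miR-181 rows, their sum, their strand shares and a ratio of 3p rows, 7 had a library far from the other 5. For independent, normally spread values chance flags about 1 in 20, or 2. A group with a single value above 0 is always flagged, with a gap of 1, so the 7 cannot be set against the 2. Of the 7 flags, 6 involve rows with 0 to 7 reads per library. miR-181b-1-3p was above 0 in 1 WT library (library 5, 3.12 RPM) and 1 db/db library (library 3, 7.77 RPM), a gap of 1, the whole range, in each. miR-181b-2-3p was 6.81 RPM in WT library 6 and at most 2.08 RPM in the other WT libraries, a gap of 0.695 of the range, and above 0 in db/db library 1 alone (4.13 RPM, a gap of 1). miR-181d-3p was above 0 in db/db library 5 alone (4.34 RPM, a gap of 1), which also set the 3p share of miR-181d there (3.43% against 0, a gap of 1). The exception with more reads was the 3p share of miR-181a, which was 6.69% in db/db library 6, the shallowest library, and at most 5.10% in the other db/db libraries, a gap of 0.741 of the range.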

How the results depend on the processing

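No miR-181 row given an adjusted p was called under any alternative run, each library left out included. DESeq2 gave none to 4 of the 9 members (miR-181a-1-3p, miR-181b-2-3p, miR-181c-3p and miR-181d-3p). miR-181d-5p kept a negative value in 29 of 29 alternatives, from -1.04 to -0.64, with adjusted p from 0.0945 to 0.775. miR-181a-5p and miR-181c-5p were negative in 29 of 29 and miR-181a-2-3p positive in 29 of 29. miR-181b-5p, near 0, turned negative in libraries 4 to 6 (-0.022) and in 4 of the 12 fits with 1 library left out, which ran from -0.075 to 0.043. The rows called over the whole table, 1 here, were 0 with quantile normalization, without the abundance trend, without any filter, with a stricter filter (10 or 100 RPM), with another pseudocount (0.1 or 10), or without WT 4 and db/db 6; 2 after median-of-ratios scaling; 3 with edgeR and 13 with DESeq2, which left 501 adjusted p missing; 10 when the set of numbers (1 to 3 or 4 to 6) entered as a factor; and 3 in libraries 4 to 6 alone. Leaving out 1 library gave 0 to 7. For each of these the cause was not tested. With the sample number as a replicate block limma called 9 and edgeR 11, and 0 miR-181 rows in both (miR-181d-5p -0.86, limma adjusted p = 0.151). Of the listed miRNAs, miR-143-3p, miR-21a-5p, miR-223-3p, miR-486a-5p and miR-92a-3p were called with the block in both, and miR-24-3p in limma. Deviations of same-numbered libraries correlated at -0.049 to 0.12, over 0.1 in 1 of 6 pairs, and 1 of 6 WT libraries correlated best with its own number. Such correlations of whole profiles over 6 pairs cannot settle whether the numbers pair the samples.

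Correlations between members changed sign for miR-181a-5p with miR-181c-5p within db/db (-0.16), miR-181a-5p with miR-181d-5p within WT (-0.21), within db/db (-0.056) and with genotype and number means removed (-0.12), miR-181b-5p with miR-181c-5p within WT (-0.027), miR-181b-5p with miR-181d-5p without WT 4 and db/db 6 (-0.10), and miR-181c-5p with miR-181d-5p within WT (-0.59) and with those means removed (-0.14). Depth limits the 3p rows: miR-181b-1-3p, miR-181b-2-3p and miR-181d-3p had at most 7 reads in any library. Filters at 10 and 100 RPM left out 3 and 5 of the 10 members, which have no value there.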
